A study of Mus musculus with 12 samples.

Results

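The combined loss of Rab11a and Rab11b from mouse jejunum (DKO) was compared with wild type (WT) in RNA of whole tissue. The comparison covered every gene whose deposited value reached 1 in at least 3 of the 6 DKO and WT libraries, which was 13364 of the 23988 genes in the table. Of the 10624 genes left out, none was tested, and 224 of the tested genes passed through their DKO values alone and 143 through their WT values alone, so a difference in those genes is in part set by the filter. Among the genes named below, Etv4, Fosl1, Gdf15, Retnlb and Krt6a passed through DKO alone. Arg2, Cyp2c55, Cyp3a25, Kctd12 and Ces2d-ps passed through WT alone.

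Each group held 3 libraries. DKO mice had the genotype Rab11aL/L, Rab11b-/-, VillinCreER+, that is, a floxed Rab11a allele that a tamoxifen-activated Cre removes where the villin promoter is active, in the intestinal epithelium, on a background that lacks Rab11b in all cells. WT mice are labelled by genotype only, and the labels do not say whether they carried Cre or the floxed allele. AKO (Rab11aL/L, VillinCreER+) and BKO (Rab11b-/-) carried each loss alone and are used below only to ask where DKO differed from a single loss. Adult mice of every group had received tamoxifen at 40 mg/kg, and jejunum was taken 2 days later. Sex and exact age are not given in the labels. The labels do not say how many animals gave the 3 libraries of a group, so p-values measure the spread between these libraries, which may be technical in part.

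Rab11 proteins are small GTPases of the recycling endosome. In their GTP-bound form they recruit effectors, among them the Rab11-FIP proteins, the motor myosin Vb and the exocyst subunit Sec15, and so return internalised receptors, adhesion molecules and apical membrane proteins to the cell surface. Loss of MYO5B in humans causes microvillus inclusion disease, in which enterocytes do not place their brush border correctly. Recycling endosomes also travel to the poles of the mitotic spindle, and the title of the series names the spindle of dividing progenitors as the process in which both proteins act redundantly. The question of the DKO comparison is therefore what the tissue expresses when neither gene can stand in for the other.

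Values are fragments scaled by 1 factor per library (fpm), not divided by gene length, so they compare libraries and not genes with one another. The 6 libraries held 20100297 to 28874625 recovered reads. A change is the difference of group means of log2(fpm + 1), DKO minus WT, given with its standard error and a Benjamini-Hochberg adjusted p from limma over all genes tested. The test was two-sided and a gene counts as called below an adjusted p of 0.05. On the log2(fpm + 1) scale the change of a gene with low values is understated. Pairs of libraries of the same group correlated across genes at r of 0.970 to 0.991, and the first principal component, with 76.6% of the variance, set DKO apart from WT.

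Some features of the libraries other than genotype bear on what follows. Xist, the transcript of the inactive X chromosome, stood at 205, 144 and 342 fpm in DKO, against 158, 0.1097 and 0.104 fpm in WT. The 4 Y-linked genes examined were at 0 in all DKO libraries and in WT replicate 1, and present in WT replicates 2 and 3. The DKO libraries and WT replicate 1 thus share one Xist state and the other WT libraries the opposite one. The WT libraries therefore did not all come from 1 animal, and each count below was repeated with this state as a term in the fit. With that term the change of a gene is the DKO mean minus WT replicate 1 alone. The comparison then rests on fewer libraries, so a lost call or a lower count there need not mean a smaller change. WT replicate 2 held more B-cell RNA than the others, with Cd79a at 141 fpm against 14.7 and 12.5 fpm in WT replicates 1 and 3. Ribosomal protein symbols took 3.37 to 4.95% of the DKO values and 2.80 to 3.21% of the WT values.

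The regional label was checked against markers. Lct, the lactase of proximal small intestine, was at 0.194, 0 and 0 fpm in the DKO libraries and at 0 in the 3 WT libraries, and Tmprss15, the enteropeptidase of the duodenum, was at 0 in all 6. Gata4, a transcription factor of proximal small intestine, reached 1.02, 0.530 and 0.457 fpm in DKO and 0.530, 1.21 and 1.00 fpm in WT. The ileal genes Fabp6 and Slc10a2, a bile acid carrier and the bile acid uptake transporter, were present in all 12 libraries. The tissue labelled jejunum therefore carried transcripts of distal small intestine and nearly none of these proximal markers, in both groups. The levels of Fabp6 and Slc10a2 were not alike, since both were called lower in DKO, as described below.

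Rab11b fell in DKO. Its values were 24.6, 21.7 and 22.3 fpm in DKO, against 119, 119.5 and 110.3 fpm in WT (log2 change -2.30 ± 0.10, adjusted p = 5.22e-06), and the groups did not overlap. Rab11a also fell, with 109.7, 96.0 and 112 fpm in DKO, against 182, 188 and 188 fpm in WT (log2 change -0.81 ± 0.10, adjusted p = 0.000541). In the single losses Rab11b averaged 112 ± 6.67 fpm in AKO and 27.0 ± 4.23 fpm in BKO, and Rab11a averaged 59.4 ± 9.43 fpm in AKO and 230.0 ± 39.7 fpm in BKO (SD, n = 3 each). The DKO libraries kept more Rab11a transcript than the AKO libraries, with a difference of 0.83 ± 0.15 (adjusted p = 0.00249). Whole jejunum also holds cells in which villin Cre is not active, and the deposited values cover whole genes rather than the deleted exons. Rab25, the third and epithelial member of the family, was at 92.7, 95.9 and 106 fpm in DKO, against 88.1, 76.9 and 87.0 fpm in WT and was not called (log2 change 0.22, adjusted p = 0.122), although it was called with scaling by total reads (adjusted p = 0.0464).

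**Figure D1:**
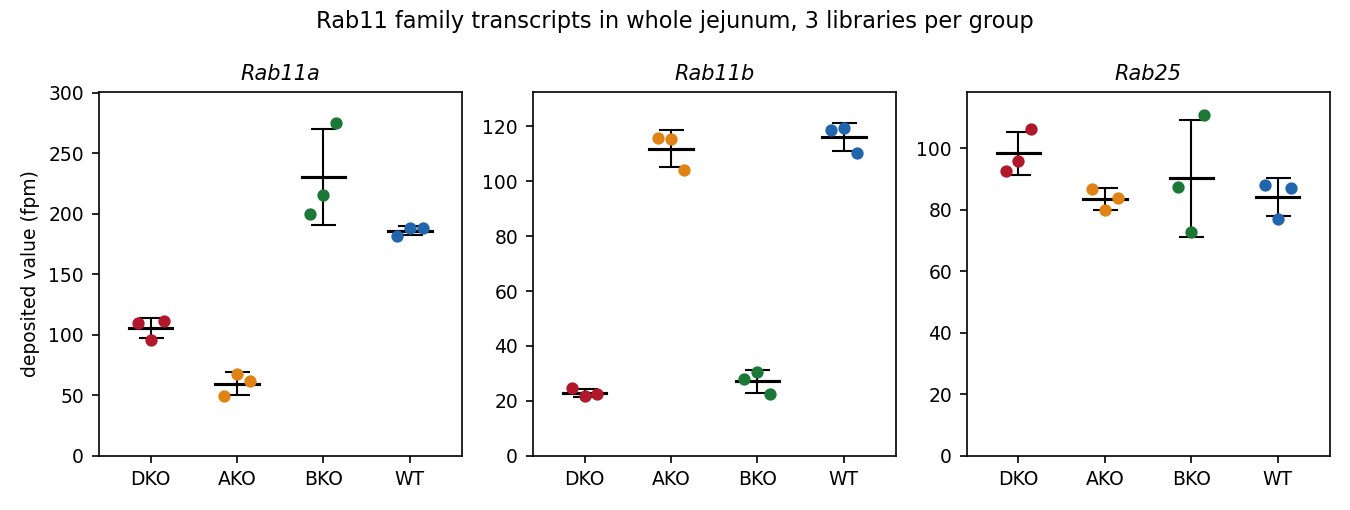
Deposited values (fpm, linear axis from 0) of Rab11a, Rab11b and Rab25 in the 12 libraries. Points are libraries, lines the mean and bars the SD of 3 libraries per group. Rab11b is near 20 to 30 fpm in DKO and BKO and over 100 fpm in AKO and WT, and the DKO values of Rab11a lie between those of AKO and WT.

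Of the 18 Rab11 genes and effectors tested, 3 were called higher and 6 lower, against 41.4% of all tested genes called in either direction, 19.8% higher and 21.6% lower. Apart from the targeted genes, the falls included Rab11fip3, a Rab11 effector of the centrosome and the cleavage furrow, at 32.1, 26.9 and 25.2 fpm in DKO, against 88.6, 76.8 and 76.8 fpm in WT (log2 change -1.49 ± 0.13, adjusted p = 8.93e-05). Exoc6, the Sec15 subunit that binds Rab11, changed by -0.60 (adjusted p = 0.00399), and Myo5b, at 411, 308 and 271 fpm in DKO, against 399, 319.5 and 351 fpm in WT, was not called (adjusted p = 0.568). Among 29 genes of apical trafficking 6 were higher and 6 lower. Stx3, the apical SNARE whose loss also causes microvillus inclusion disease in humans, was at 247, 211 and 223 fpm in DKO, against 122, 106 and 131 fpm in WT (log2 change 0.92 ± 0.12, adjusted p = 0.000664). Vps33b and Vipas39, which form one complex in apical sorting, fell by 1.04 and 0.80 on the log2 scale (adjusted p = 0.000842 and 0.000874). The median change of both lists was near 0 (0.03 and 0.01) and changed sign between processing settings. The number of Rab11 genes called higher was 0 with Xist state as a term and 5 without DKO replicate 3, and that of apical genes called lower was 3 without DKO replicate 2, without WT replicate 2 or without WT replicate 3.

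Of all 13364 genes tested, 5533 were called, with 2649 up and 2884 down in DKO, and the median change over all tested genes was -0.01. Of these, 2067 (15.5% of genes tested) changed at least 2-fold, 1007 upward and 1060 downward. In 7406 genes, 55.4% of those tested, the 3 DKO values did not overlap the 3 WT values. The genes named in this text were mostly picked for a small p, a large change or a high level. A lack of overlap in them follows in large part from that choice and is no added support. With Xist state as a term 2411 genes were called, 1048 higher and 1363 lower. The largest rises by the rule for named genes were Il1rn, Ly6d, Areg and Anxa1, and the largest falls Defa2, Apol10a, Ces2d-ps and Defa21, each described below.

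**Figure D2:**
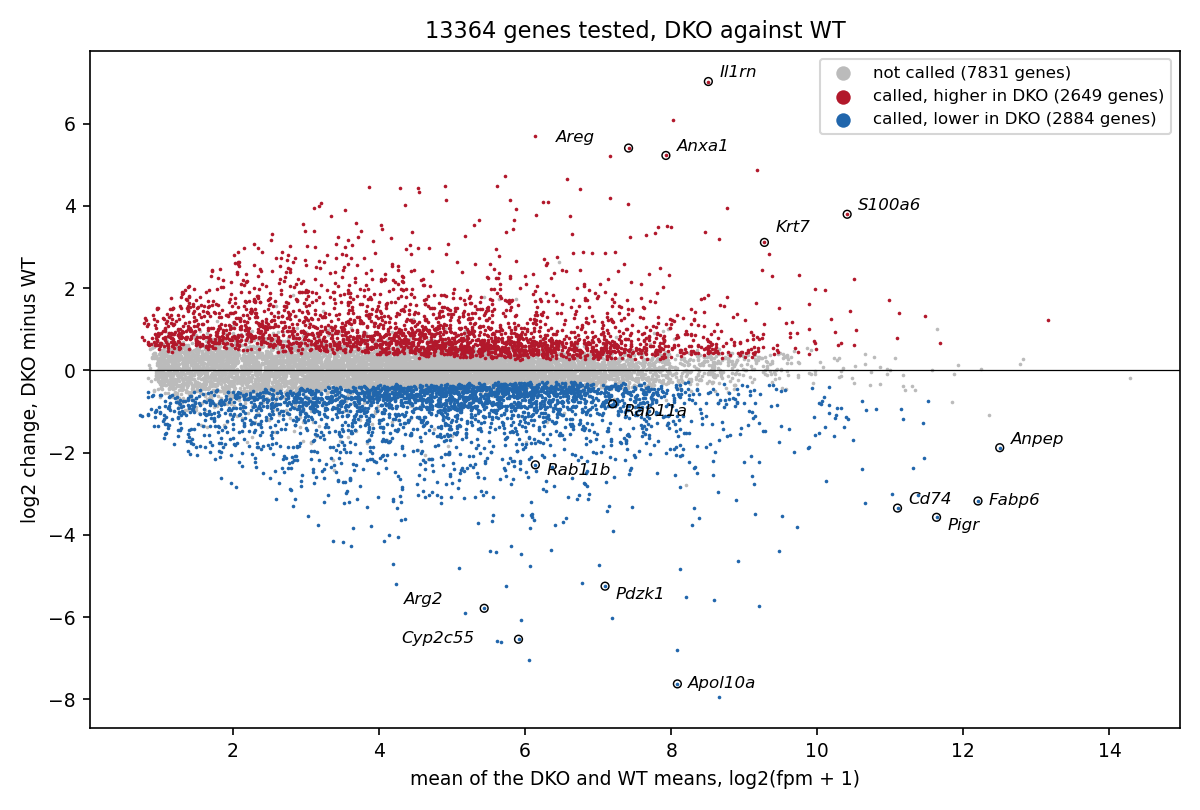
Log2 change, DKO minus WT, against the log2 of the mean level (fpm + 1) for the 13364 tested genes. Each point is a gene, coloured by its call, and circles mark genes named in the text. Called genes lie on both sides, 2649 higher and 2884 lower, with Il1rn at the top (7.03) and Apol10a near the bottom (-7.62).

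YAP is a transcriptional co-activator that acts through TEAD factors, and after injury the intestinal epithelium takes on a programme that resembles its fetal state, with genes such as Ly6a, Anxa1 and Clu. Of 40 genes written in a list of YAP targets and fetal-like genes, 36 were tested, 31 were called higher and 0 lower, and their median change was 2.35. Il1rn, the antagonist that blocks the interleukin-1 receptor, stood at 808, 661 and 694 fpm in DKO, against 3.02, 9.51 and 2.98 fpm in WT (log2 change 7.03 ± 0.35, adjusted p = 8.95e-06). Anxa1, a phospholipid-binding annexin, stood at 478, 381 and 560.4 fpm in DKO, against 12.2, 12.1 and 10.3 fpm in WT (log2 change 5.23 ± 0.15, adjusted p = 2.04e-06). Ly6a, also called Sca-1, stood at 1129, 1038 and 1167 fpm in DKO, against 51.6, 34.3 and 27.7 fpm in WT (log2 change 4.88 ± 0.21, adjusted p = 4.45e-06). In each of these 3 genes every DKO library was more than 10 times as high as any WT library.

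Other genes of the list moved in the same direction. S100a6, a calcium-binding protein, was at 2755, 2057 and 2800.0 fpm in DKO, against 179, 179 and 182 fpm in WT (log2 change 3.80 ± 0.14, adjusted p = 2.96e-06). Sprr1a, a precursor of the cornified envelope of skin, was at 207, 176 and 164 fpm in DKO, against 5.22, 10.4 and 4.36 fpm in WT (log2 change 4.66 ± 0.27, adjusted p = 1.6e-05). The matricellular YAP targets Ctgf and Cyr61, named here after their values were seen, rose by 2.53 (adjusted p = 0.000235) and 1.80 (adjusted p = 0.000462), and their highest DKO values were 39.6 and 20.04 fpm. Clu, a marker of revival stem cells also named after its values were seen, was at 44.7, 24.9 and 23.7 fpm in DKO, against 17.4, 228 and 16.5 fpm in WT (adjusted p = 0.715). WT replicate 2 alone was high for Clu, and without it the change was 0.78 (adjusted p = 0.0569).

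Several members of this list are also made by fibroblasts and macrophages, and summed markers of both were higher in DKO. The summed level of the fibroblast markers Col1a1, Col1a2, Pdgfra and Dcn was 440.3 to 704 fpm in DKO and 144 to 187 fpm in WT, and none of them was at 0. The 3 macrophage markers Csf1r, Cd68 and C1qa summed to 86.8 to 97.0 fpm in DKO and 53.01 to 75.9 fpm in WT, and Csf1r itself was not called. Adgre1, listed under its older symbol Emr1, was not part of this sum. Their part in the rise of the fetal-like genes was not tested. In bulk tissue more cells of a type cannot be told apart from more RNA per cell, and fewer cells not from less RNA per cell.

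The receptors of the epidermal growth factor family pass through recycling endosomes, and their ligands drive ERK signalling in the crypt. Of 22 ligand, receptor and feedback genes tested, 19 were higher and 2 lower, with a median of 1.58, and 13 and 0 with Xist state as a term. Among the ligands, Areg was at 287, 294 and 417 fpm in DKO, against 5.22, 7.94 and 7.34 fpm in WT (log2 change 5.41 ± 0.19, adjusted p = 2.24e-06), Ereg at 204, 212 and 301 fpm in DKO, against 32.9, 27.2 and 34.6 fpm in WT (log2 change 2.87 ± 0.17, adjusted p = 1.94e-05) and Btc at 53.7, 59.5 and 80.1 fpm in DKO, against 7.09, 4.54 and 5.81 fpm in WT (log2 change 3.26 ± 0.20, adjusted p = 2.08e-05). The groups were far apart for all of them, and the lowest DKO value of Areg was 287 fpm against a highest WT value of 7.94 fpm. The ERK-induced transcription factor Etv4 was at 15.7, 21.9 and 16.0 fpm in DKO, against 0.408, 0.622 and 0.173 fpm in WT (log2 change 3.75 ± 0.20, adjusted p = 1.26e-05). Spry4, a feedback inhibitor of receptor tyrosine kinases, was at 21.7, 21.6 and 19.8 fpm in DKO, against 1.51, 1.72 and 1.80 fpm in WT (log2 change 3.04 ± 0.14, adjusted p = 6.43e-06). The receptors were split. Egfr itself, named after its values were seen, was at 93.8, 62.5 and 53.4 fpm in DKO, against 23.2, 18.3 and 23.8 fpm in WT (log2 change 1.61 ± 0.21, adjusted p = 0.000823). Erbb2 was at 120.0, 93.1 and 74.8 fpm in DKO, against 178, 159.8 and 184 fpm in WT, a change of -0.87, and Erbb3 changed by -0.87 (adjusted p = 0.00502 and 0.0134). With Xist state as a term the changes were -0.91 and -0.80, and neither was called.

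Immediate early genes encode transcription factors switched on within minutes of a growth signal or stress, including the AP-1 factors of the Fos and Jun families. Of 26 tested, 16 were higher and 1 lower, and 9 were higher with Xist state as a term. Fosl1, the AP-1 subunit Fra-1, was at 5.72, 7.72 and 10.6 fpm in DKO, against 0.0815, 0.256 and 0 fpm in WT (log2 change 2.99 ± 0.23, adjusted p = 5.85e-05). Egr1 was at 155, 106 and 133 fpm in DKO, against 14.3, 29.8 and 22.2 fpm in WT (log2 change 2.56 ± 0.26, adjusted p = 0.000211), and Junb at 214, 204 and 188 fpm in DKO, against 94.6, 80.8 and 78.0 fpm in WT (log2 change 1.25 ± 0.11, adjusted p = 0.000119). The DKO values were above the WT values in every library. Dusp1, a phosphatase that turns off MAP kinases, rose by 2.08 (adjusted p = 0.000146). The fall was in Klf4, a factor of differentiated villus and goblet cells, at 193, 131 and 133 fpm in DKO, against 373, 310.0 and 301 fpm in WT (log2 change -1.11 ± 0.17, adjusted p = 0.00165).

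Promoter letters known for AP-1, HNF4 and TEAD factors are given here as a description, and no regulator is inferred from them. The windows run from 250 bases before to 50 after a RefSeq transcription start (GRCm38.p6, gene strand), and 10029 of the tested genes had at least 1 window. The AP-1 letters TGANTCA, searched on both strands, stood in a window of 6.64% of these genes, 12.9% of those called at least 2-fold higher (92 of 714) and 8.51% of those at least 2-fold lower (66 of 776). The letters CAAAGTCCA, bound by the enterocyte factor HNF4, stood in 0.608% of all, 0.280% of the higher (2 of 714) and 1.93% of the lower genes (15 of 776). The TEAD letters GGAATG stood in 14.6%, 16.5% and 16.4% in the same order. Over all 32851 windows of the RefSeq table the shares were 7.81%, 0.475% and 14.7%. The 3 motifs do not contain one another. In the fetal-like list AP-1 letters stood in 30.4% and TEAD letters in 30.4% of genes with a window. In the fat, sterol, hydrolase and carrier lists, with more genes lower than higher, AP-1 letters stood in 12.9%, 11.8%, 10% and 9.09%. TEAD letters stood in 22.6%, 23.5%, 30% and 24.2% in that order, and HNF4 letters in 0%, 0%, 10% and 3.03%. These shares are descriptions of letters and were not tested.

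The windows of 4 risen genes with AP-1 letters and of 1 fallen gene with HNF4 letters follow as examples, with the matches in capitals. The AP-1 letters also stood in windows of fallen genes, among them Aoc1 and Defa2. Of the 14 genes of the EGF list with a window, 0 held them. In Il1rn (window chr2:24336610-24336909, plus strand) the match begins 141 bases before the start. Another Il1rn window (chr2:24345121-24345420, plus strand), not shown, held TEAD letters and no AP-1 letters. Sprr1a (chr3:92485832-92486131, minus strand) has 2, beginning 146 and 116 bases before it. S100a11 (chr3:93520246-93520545, plus strand) has 2, at 136 and 38 bases before it. F3, the coagulation initiator tissue factor (chr3:121723287-121723586, plus strand), has 2 that begin 146 and 135 bases before it. In Pdzk1 (chr3:96829815-96830114, plus strand) the HNF4 letters lie downstream of the start.
Il1rn: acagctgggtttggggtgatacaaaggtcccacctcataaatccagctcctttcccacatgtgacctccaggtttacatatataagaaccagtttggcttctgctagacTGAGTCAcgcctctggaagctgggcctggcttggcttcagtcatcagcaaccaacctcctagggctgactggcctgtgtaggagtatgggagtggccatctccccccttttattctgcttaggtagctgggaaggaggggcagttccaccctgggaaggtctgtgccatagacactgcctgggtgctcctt
Sprr1a: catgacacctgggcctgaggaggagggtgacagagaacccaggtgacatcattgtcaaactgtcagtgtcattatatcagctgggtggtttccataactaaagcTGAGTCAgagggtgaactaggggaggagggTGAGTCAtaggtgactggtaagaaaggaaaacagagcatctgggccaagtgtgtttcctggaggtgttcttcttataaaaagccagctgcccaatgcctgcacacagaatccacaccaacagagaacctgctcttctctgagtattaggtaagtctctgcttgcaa
S100a11: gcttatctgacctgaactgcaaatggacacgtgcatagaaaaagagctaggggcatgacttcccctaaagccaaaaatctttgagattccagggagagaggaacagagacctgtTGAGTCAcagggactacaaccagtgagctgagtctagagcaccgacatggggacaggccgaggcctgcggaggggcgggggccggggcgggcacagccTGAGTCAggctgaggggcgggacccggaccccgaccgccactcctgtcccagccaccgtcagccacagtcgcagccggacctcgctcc
F3: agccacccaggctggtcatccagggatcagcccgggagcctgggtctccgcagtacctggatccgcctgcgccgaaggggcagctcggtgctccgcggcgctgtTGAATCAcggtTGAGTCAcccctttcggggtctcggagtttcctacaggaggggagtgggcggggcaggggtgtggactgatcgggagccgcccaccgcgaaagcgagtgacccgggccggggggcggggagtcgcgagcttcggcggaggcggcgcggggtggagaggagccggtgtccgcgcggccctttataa
Pdzk1: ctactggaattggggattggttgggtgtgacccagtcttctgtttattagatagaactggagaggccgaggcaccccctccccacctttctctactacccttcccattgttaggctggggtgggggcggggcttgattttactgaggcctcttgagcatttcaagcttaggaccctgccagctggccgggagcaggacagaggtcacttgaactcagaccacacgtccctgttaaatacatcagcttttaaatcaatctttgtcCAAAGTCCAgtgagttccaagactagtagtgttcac
The changes of these genes were 7.03 for Il1rn, 4.66 for Sprr1a, 3.21 for S100a11, 4.20 for F3 and -5.25 for Pdzk1.

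Keratins, hemidesmosome parts, an epithelial laminin and matrix proteases are the equipment of an epithelium that spreads or is under mechanical load. Of 31 tested, 26 were higher and 0 lower (median 1.34), and 16 were higher with Xist state as a term. Krt7 was at 1293, 1068 and 971 fpm in DKO, against 143, 129.7 and 109 fpm in WT (log2 change 3.11 ± 0.15, adjusted p = 8.22e-06) and Krt18 at 1793, 1296 and 1236 fpm in DKO, against 306, 285 and 264 fpm in WT (log2 change 2.32 ± 0.16, adjusted p = 3.86e-05). Krt23 was at 115, 96.5 and 105 fpm in DKO, against 7.71, 7.72 and 6.89 fpm in WT (log2 change 3.65 ± 0.12, adjusted p = 2.04e-06). All 3 keratins had DKO values above every WT value. Krt6a, a keratin of skin wounds, had no read in any WT library and was at 12.6, 13.9 and 23.01 fpm in DKO, which is at least 147-fold higher when WT is set to a floor of 3 reads per library. Plau, the protease urokinase, was at 37.0, 32.8 and 42.1 fpm in DKO, against 3.71, 3.15 and 4.05 fpm in WT (log2 change 3.05 ± 0.15, adjusted p = 8.88e-06). The abundant Krt8 and Krt20 were not called (log2 change 0.29 and 0.14, adjusted p = 0.381 and 0.634), although Krt20 was called higher with quantile scaling (0.59, adjusted p = 0.0444) and changed sign without DKO replicate 1 (-0.065). Of 44 actin cytoskeleton genes 16 were higher and 2 lower. That is 40.9% called in either direction, near the 41.4% of all tested genes, of which 19.8% were higher and 21.6% lower. The median change was 0.31, and 0.32 with Xist state as a term. Among the higher genes was the capping protein Capg at 321, 225 and 244 fpm in DKO, against 28.7, 53.1 and 26.6 fpm in WT (log2 change 2.88 ± 0.26, adjusted p = 0.000132). Actb was at 7436 ± 1274 fpm in DKO and 6583 ± 544 fpm in WT and not called (adjusted p = 0.568).

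Transcripts of most brush border hydrolases and of most sugar, amino acid and peptide carriers examined lay lower in DKO than in WT. Of 31 brush border hydrolases written in the list 23 were tested, 22 were called lower and 1 higher, with a median of -2.41. Anpep, aminopeptidase N, was at 2507, 2927 and 2027 fpm in DKO, against 10040.0, 8754 and 8442 fpm in WT (log2 change -1.88 ± 0.21, adjusted p = 0.000347), and Enpep, aminopeptidase A, at 335, 309 and 283 fpm in DKO, against 3350.0, 2545 and 2865 fpm in WT (log2 change -3.23 ± 0.14, adjusted p = 5.76e-06). Mep1a, a subunit of the metalloprotease meprin, was at 77.6, 51.7 and 64.0 fpm in DKO, against 1615, 1211 and 1250.0 fpm in WT (log2 change -4.38 ± 0.18, adjusted p = 3.97e-06). Xpnpep2, which cleaves peptides before proline, was at 17.4, 19.2 and 16.0 fpm in DKO, against 689.8, 471 and 447 fpm in WT (log2 change -4.83 ± 0.17, adjusted p = 2.24e-06). The DKO values of these 4 enzymes, picked from the list by small p or high level, lay below the WT values without overlap. Ces2a, a carboxylesterase, changed by -5.51, the peptidase Dpp4 by -2.08 and the dipeptidase Dpep1 by -2.57, with adjusted p of 2.11e-06, 1.38e-05 and 4.44e-06.

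Of 37 carriers of sugars, amino acids and peptides, 26 were lower and 6 higher (median -1.30). Slc5a1, the sodium-glucose cotransporter, was at 395, 413 and 394 fpm in DKO, against 1601, 1506 and 1335 fpm in WT (log2 change -1.88 ± 0.12, adjusted p = 2.35e-05). Slc1a1, a carrier of glutamate and aspartate, was at 5.38, 8.29 and 12.7 fpm in DKO, against 267, 228 and 248 fpm in WT (log2 change -4.74 ± 0.25, adjusted p = 1.19e-05), and Slc6a19, the main carrier of neutral amino acids, at 248, 227 and 202 fpm in DKO, against 748, 715 and 547 fpm in WT (log2 change -1.56 ± 0.15, adjusted p = 0.000174). Slc2a1, the GLUT1 glucose transporter of proliferating and hypoxic cells, went the other way, at 259, 175 and 198 fpm in DKO, against 25.9, 31.9 and 26.9 fpm in WT (log2 change 2.84 ± 0.16, adjusted p = 1.53e-05). Among 41 ion and metal transport genes 21 were lower and 8 higher. The chloride-bicarbonate exchanger Slc26a3 was at 26.4, 27.9 and 23.1 fpm in DKO, against 155, 129 and 126 fpm in WT (log2 change -2.36 ± 0.12, adjusted p = 1.14e-05), and the phosphate carrier Slc34a2 at 65.9, 45.5 and 41.1 fpm in DKO, against 657, 571 and 607 fpm in WT (log2 change -3.59 ± 0.17, adjusted p = 8.22e-06). Car4, a membrane carbonic anhydrase, rose by 1.30 on the log2 scale (adjusted p = 0.00111).

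Rab11 loss is best known for its effect on the brush border. Of 37 microvillus and apical scaffold genes 18 were lower and 4 higher, and 11 and 1 with Xist state as a term. Pdzk1, a scaffold that anchors apical transporters, was at 4.51, 7.42 and 6.31 fpm in DKO, against 288, 278 and 229 fpm in WT (log2 change -5.25 ± 0.17, adjusted p = 2.09e-06). Espn, an actin bundler of microvilli, was at 67.2, 50.7 and 45.1 fpm in DKO, against 187, 153 and 198 fpm in WT (log2 change -1.72 ± 0.17, adjusted p = 0.000189). The groups did not overlap for either. Vil1, villin itself, was at 1959, 1588 and 1162 fpm in DKO, against 3314, 2710.0 and 2850.0 fpm in WT (log2 change -0.94 ± 0.21, adjusted p = 0.01) and Myo1a, its membrane-tethering myosin, changed by -0.96 (adjusted p = 0.00771). With Xist state as a term, which leaves WT replicate 1 alone as the reference, the changes were -1.11 and -1.06, and neither was called. Ezr, which links actin to the apical membrane, was at 2330.0, 1926 and 1495 fpm in DKO, against 1981, 1855 and 1571 fpm in WT (log2 change 0.07, adjusted p = 0.787), with a sign that differed between settings.

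The transcription factors that keep enterocytes differentiated formed another list. Of 43 tested, 22 were lower and 7 higher (median -0.43), and 16 and 5 with Xist state as a term. Hnf4a was at 943, 770.3 and 697 fpm in DKO, against 1445, 1246 and 1297 fpm in WT (log2 change -0.73 ± 0.15, adjusted p = 0.00634) and its relative Hnf4g at 202, 169.7 and 183 fpm in DKO, against 456, 401 and 441 fpm in WT (log2 change -1.23 ± 0.11, adjusted p = 0.000124). Ppara, the nuclear receptor for fatty acids, was at 7.37, 5.94 and 6.22 fpm in DKO, against 67.8, 63.2 and 58.1 fpm in WT (log2 change -3.09 ± 0.13, adjusted p = 4.44e-06), and its co-activator Ppargc1a at 3.25, 2.88 and 2.70 fpm in DKO, against 22.4, 17.0 and 21.7 fpm in WT (log2 change -2.43 ± 0.16, adjusted p = 2.83e-05). The fall of Ppara and Ppargc1a was the steeper one on the log2 scale, and no DKO value reached a WT value in any of the 4 genes. Vdr, the vitamin D receptor, changed by -1.81, Maf by -1.47 and the glucocorticoid receptor Nr3c1 by -1.41 (adjusted p = 0.000122, 0.000157 and 3.81e-05). Pparg rose by 0.99 (adjusted p = 0.00392), a call lost with all 12 libraries in the fit (adjusted p = 0.0659).

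**Figure D3:**
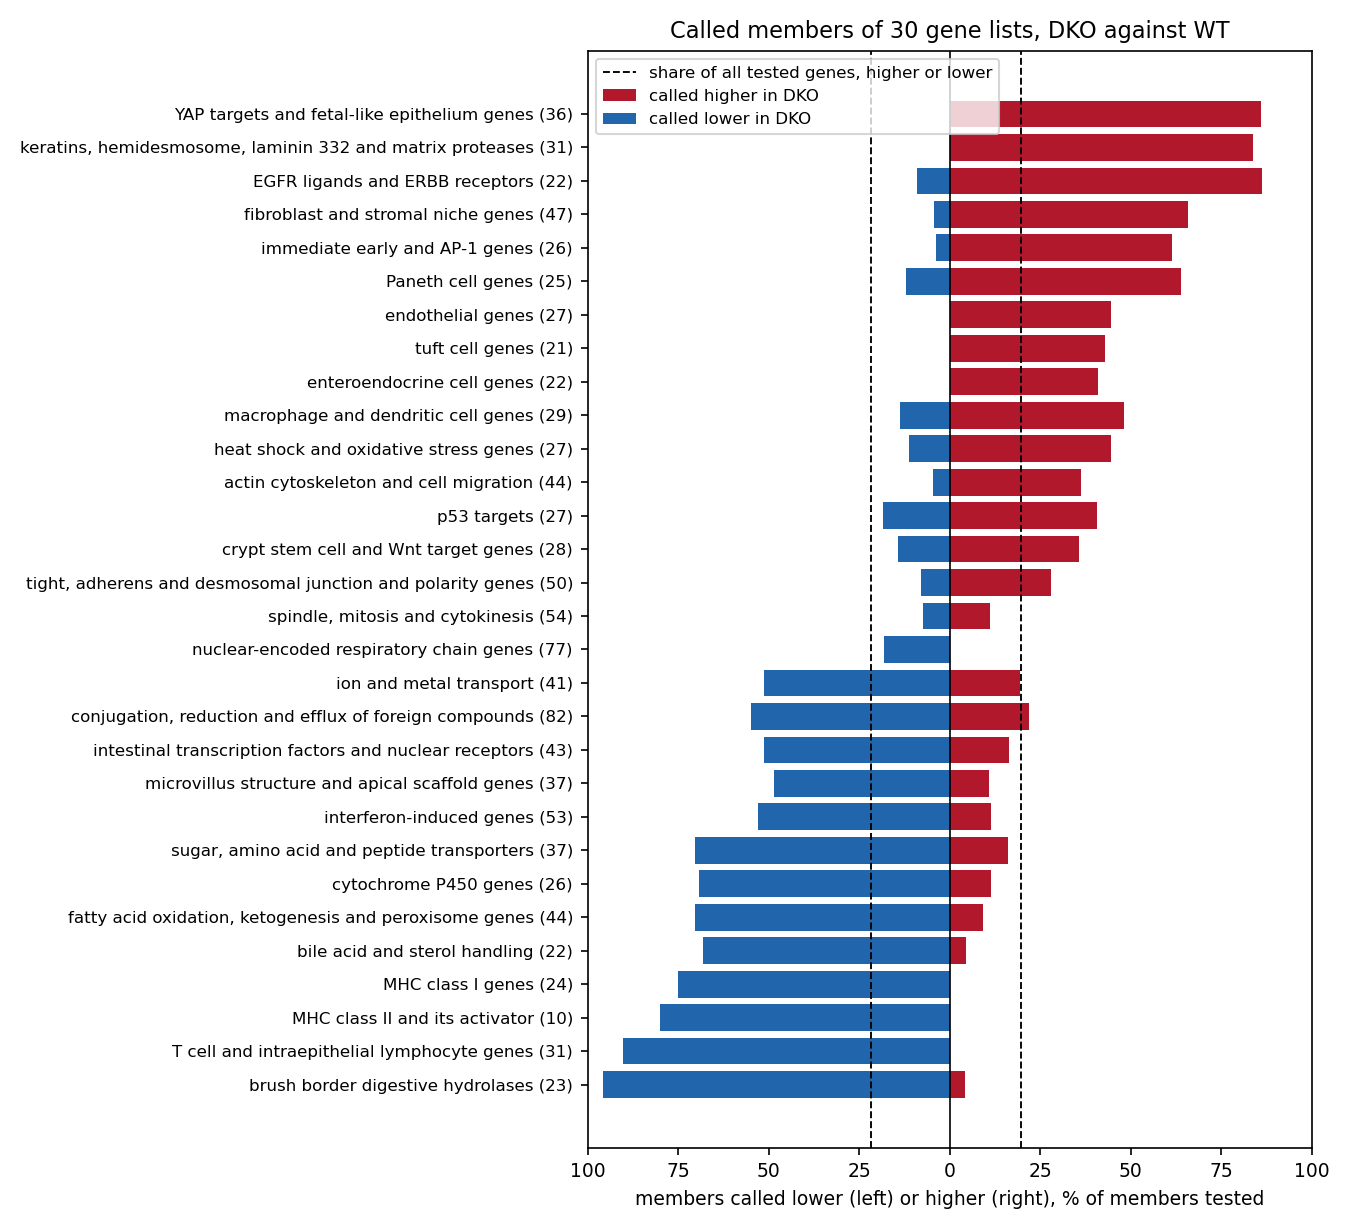
Members called higher (right) or lower (left) in DKO, as a percentage of the members tested, for 30 gene lists with the number tested in parentheses. Dashed lines mark the shares over all 13364 tested genes, 19.8% higher and 21.6% lower. The fetal-like, keratin and EGFR lists reach over 80% on the right, and the hydrolase and T cell lists over 90% on the left.

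Of 40 genes of fat absorption 15 were lower and 11 higher, and 12 and 5 with Xist state as a term. The number higher was 7 without DKO replicate 2 or without WT replicate 2. Fabp2, the intestinal fatty acid-binding protein, was at 1319, 790.1 and 1067 fpm in DKO, against 4053, 5131 and 4528 fpm in WT (log2 change -2.13 ± 0.22, adjusted p = 0.000222), and Apoa1, an apolipoprotein of HDL and chylomicrons, at 786, 1052 and 664 fpm in DKO, against 4474, 4712 and 3560.0 fpm in WT (log2 change -2.36 ± 0.21, adjusted p = 0.000115). Both lay lower in every DKO library. Apoc3 changed by -3.21 and Dgat1, which makes triglyceride, by -1.64 (adjusted p = 1.19e-05 and 4.26e-05). Apob changed by -0.93 (adjusted p = 0.0259), a call that was lost without DKO replicate 2, WT replicate 1 or WT replicate 3 and in 3 other settings.

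Bile acid and sterol handling is a task of the distal small intestine, and 15 of its 22 tested genes were lower and 1 higher (median -1.24). Fabp6, which carries bile acids through the enterocyte, was at 948, 728 and 1097 fpm in DKO, against 11020.0, 8326 and 6109 fpm in WT (log2 change -3.18 ± 0.26, adjusted p = 7.54e-05). Slc51a, a subunit of the basolateral bile acid exporter, was at 486, 368 and 373 fpm in DKO, against 1674, 1377 and 1386 fpm in WT (log2 change -1.86 ± 0.15, adjusted p = 8.38e-05). Npc1l1, the cholesterol uptake protein, was at 134, 115 and 84.1 fpm in DKO, against 667, 682 and 586 fpm in WT (log2 change -2.55 ± 0.17, adjusted p = 3.2e-05), and Abcg5, a subunit of the sterol export pump, at 20.03, 18.3 and 23.2 fpm in DKO, against 203, 162 and 196 fpm in WT (log2 change -3.13 ± 0.13, adjusted p = 4.45e-06). Uptake and export genes thus fell side by side. The apical transporter Slc10a2 was at 498, 403 and 501 fpm in DKO, against 614, 713 and 625 fpm in WT, a smaller fall of 0.48 (adjusted p = 0.0207) that was lost in 6 settings, among them the fits without DKO replicate 2 and without each WT library. Of 26 genes of cholesterol synthesis 5 were higher and 6 lower, close to the 19.8% and 21.6% of all genes. Tm7sf2, a sterol reductase, was at 8.83, 7.72 and 9.15 fpm in DKO, against 44.6, 44.8 and 35.3 fpm in WT (log2 change -2.15 ± 0.14, adjusted p = 2.89e-05). The count of higher cholesterol genes was 3 without DKO replicate 2, 3 without WT replicate 2, 1 without WT replicate 1, 1 without WT replicate 3 and 0 with Xist state as a term.

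Of 44 genes of fatty acid oxidation, ketogenesis and peroxisomes 31 were lower and 4 higher (median -0.73), with 2 higher without DKO replicate 2, DKO replicate 3, WT replicate 2 or WT replicate 3. With Xist state as a term 21 were lower and 2 higher. Hadh, a dehydrogenase of the mitochondrial cycle, was at 154, 145 and 158 fpm in DKO, against 578, 515 and 573 fpm in WT (log2 change -1.86 ± 0.10, adjusted p = 1.26e-05). Acaa1b, a peroxisomal thiolase, was at 1.75, 2.08 and 2.01 fpm in DKO, against 34.9, 36.0 and 35.7 fpm in WT (log2 change -3.63 ± 0.13, adjusted p = 2.24e-06), and Cat, catalase, at 42.0, 39.5 and 38.2 fpm in DKO, against 184, 174 and 205 fpm in WT (log2 change -2.20 ± 0.10, adjusted p = 7.15e-06). Vnn1, a pantetheinase and known target of PPAR alpha, changed by -4.37 (adjusted p = 8.67e-06). Among 77 nuclear-encoded respiratory chain genes 14 (18.2%) were lower and 0 higher, and their median was -0.18. Over all tested genes 21.6% were lower, so this list was not called lower more often than other genes. Sdhb, of complex II, was at 127, 118 and 148 fpm in DKO, against 249.7, 228 and 266 fpm in WT (log2 change -0.92 ± 0.12, adjusted p = 0.000712), whereas Atp5b, of the ATP synthase, changed by -0.33 and was not called (adjusted p = 0.0879), although it was with DESeq2 (adjusted p = 0.012) and with quality weights (adjusted p = 0.00437). The number lower in this list was 7 without DKO replicate 2, 6 and 6 without WT replicates 1 and 3, 30 without DKO replicate 3, 3 with Xist state as a term and 60 with quality weights.

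Genes that clear foreign compounds fell in large numbers. Of 54 cytochrome P450 genes in the list 26 were tested, 18 were lower and 3 higher (median -1.36). Cyp2c55 was at 0.436, 0.151 and 0.183 fpm in DKO, against 139, 131 and 84.1 fpm in WT (log2 change -6.54 ± 0.21, adjusted p = 2.09e-06). Cyp3a25 had no read in any DKO library and was at 107, 127 and 66.7 fpm in WT, which is at least 758-fold lower with DKO set to a floor of 3 reads per library. P450 genes of one subfamily are close copies, and how reads were shared between them is not given in the sources used here. Of 82 genes of conjugation, reduction and efflux 45 were lower and 18 higher. Akr1c14, an aldo-keto reductase, was at 1.65, 1.10 and 2.47 fpm in DKO, against 95.2, 85.4 and 128 fpm in WT (log2 change -5.25 ± 0.22, adjusted p = 4.68e-06). Abcb1a, the drug efflux pump P-glycoprotein, was at 748, 676 and 429 fpm in DKO, against 1879, 1666 and 1208 fpm in WT (log2 change -1.37 ± 0.25, adjusted p = 0.00367), and the aldehyde dehydrogenase Aldh1b1 changed by -2.23 (adjusted p = 1.59e-05).

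Arginine, urea-cycle and polyamine genes split, with 9 of 31 higher and 11 lower. Arg2, mitochondrial arginase, was at 0.485, 0.795 and 0.366 fpm in DKO, against 81.4, 76.0 and 95.3 fpm in WT (log2 change -5.79 ± 0.16, adjusted p = 1.97e-06). Aoc1, which oxidises histamine and putrescine, was at 15.9, 25.3 and 21.5 fpm in DKO, against 1231, 1004 and 1229 fpm in WT (log2 change -5.74 ± 0.17, adjusted p = 2.04e-06). Each lay more than 10 times lower in every DKO library than in any WT library. Oat, which links ornithine to proline, changed by -2.22 and Otc, which makes citrulline, by -1.64 (adjusted p = 2.08e-05 and 6e-05).

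Paneth cells lie at the crypt base and release antimicrobial peptides, and of 25 of their genes 16 were higher and 3 lower (median 1.26). The alpha-defensin Defa23 was at 2147, 1808 and 3248 fpm in DKO, against 444, 574 and 485 fpm in WT (log2 change 2.22 ± 0.23, adjusted p = 0.000229), and Ang4, an antimicrobial ribonuclease, at 368, 289 and 364 fpm in DKO, against 38.9, 105 and 70.3 fpm in WT (log2 change 2.34 ± 0.32, adjusted p = 0.000957). Other defensins moved the opposite way. Defa21 was at 0, 6.66 and 12.4 fpm in DKO, against 384, 703 and 516 fpm in WT (log2 change -6.79 ± 0.84, adjusted p = 0.000602) and Defa2 at 0, 0 and 30.1 fpm in DKO, against 571, 1021 and 793 fpm in WT (log2 change -7.94 ± 1.20, adjusted p = 0.00159), with DKO replicates 1 and 2 at 0 for Defa2, which DESeq2 did not call (adjusted p = 0.092). Alpha-defensin genes are near-identical copies that also differ between mouse strains, so the split between them is uncertain. Lyz1, the Paneth cell lysozyme, was at 2273, 4131 and 6570.0 fpm in DKO, against 1276, 2537 and 2312 fpm in WT, overlapped between the groups and was not called (adjusted p = 0.0856), although it was called without DKO replicate 1 (adjusted p = 0.0177).

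Goblet cell genes were split, with 10 of 28 higher and 5 lower, and 6 and 1 with Xist state as a term. With quality weights 10 were lower and with quantile scaling 3. The 4 goblet cell markers summed to 3789 to 5781 fpm in DKO and 5697 to 6745 fpm in WT. Muc2, the main gel-forming mucin, was at 2143, 2598 and 1237 fpm in DKO, against 939.9, 1004 and 966 fpm in WT (log2 change 0.97 ± 0.26, adjusted p = 0.0191), and Fcgbp, a protein bound to that mucin, at 2306, 1866 and 957 fpm in DKO, against 3479, 4503 and 3694 fpm in WT (log2 change -1.27 ± 0.32, adjusted p = 0.0148). Muc2 rose and Fcgbp fell. With Xist state as a term the changes were 1.02 and -1.12, and neither was called. Muc2 also lost its call without DKO replicate 2, WT replicate 1 or WT replicate 3. In BKO, Muc2 was at 1865, 2078 and 1945 fpm. Spink4, a peptide of goblet and Paneth cells, was at 848, 1018 and 1325 fpm in DKO, against 382, 311 and 399 fpm in WT (log2 change 1.53 ± 0.18, adjusted p = 0.000532), and Gcnt3, which branches mucin glycans, at 389, 406 and 341 fpm in DKO, against 87.7, 89.2 and 100.9 fpm in WT (log2 change 2.02 ± 0.11, adjusted p = 1.37e-05). Retnlb, a goblet cell lectin-like peptide induced by microbes and worms, was at 35.0, 22.6 and 22.96 fpm in DKO, against 0.652, 0 and 0.173 fpm in WT (log2 change 4.45 ± 0.25, adjusted p = 1.54e-05).

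Hormone-making cells were represented by 22 tested genes, of which 9 were higher and 0 lower (median 0.63), and 19 higher with quality weights. In the main fit 40.9% were called, near the 41.4% of all tested genes, of which 19.8% were higher and 21.6% lower. The granule protein Chgb was at 52.6, 121 and 60.6 fpm in DKO, against 17.4, 19.2 and 24.2 fpm in WT (log2 change 1.81 ± 0.30, adjusted p = 0.00229), and Cck, cholecystokinin, at 8.002, 11.4 and 13.1 fpm in DKO, against 1.51, 1.94 and 1.66 fpm in WT (log2 change 2.11 ± 0.20, adjusted p = 0.000166). DKO replicate 2 was the highest of the DKO libraries for Chgb. Chga rose by 1.38 and Tac1, which encodes substance P, by 2.05 (adjusted p = 0.00404 and 0.000195). Of 21 tuft cell genes 9 were higher and 0 lower, 42.9% called against 41.4% of all tested genes. The number higher was 5 without DKO replicate 1, 4 without DKO replicate 2, 5 without WT replicate 1 and 3 without WT replicate 3. Alox5ap, which serves leukotriene synthesis, was at 7.66, 9.80 and 12.4 fpm in DKO, against 3.79, 2.49 and 2.60 fpm in WT (log2 change 1.46 ± 0.22, adjusted p = 0.0014), and the tuft marker Dclk1 at 35.0, 22.1 and 14.1 fpm in DKO, against 14.3, 15.2 and 10.3 fpm in WT (adjusted p = 0.0937), which was called without DKO replicate 3 (adjusted p = 0.0194).

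Crypt stem cells carry Lgr5 and Olfm4. Of 28 stem cell and Wnt target genes 10 were higher and 4 lower, and 7 and 2 with Xist state as a term. Olfm4 was at 57.2, 105 and 138 fpm in DKO, against 293, 215 and 250 fpm in WT (log2 change -1.40 ± 0.30, adjusted p = 0.00723), while Lgr5 was at 8.63, 13.9 and 13.1 fpm in DKO, against 15.2, 9.36 and 14.8 fpm in WT, with overlapping groups (log2 change -0.13, adjusted p = 0.676). The hyaluronan receptor Cd44, a Wnt target, was at 96.5, 117 and 106 fpm in DKO, against 40.7, 44.5 and 38.9 fpm in WT (log2 change 1.34 ± 0.11, adjusted p = 8.54e-05), and Igfbp4, which binds insulin-like growth factors, at 177, 190.3 and 157 fpm in DKO, against 53.2, 49.2 and 56.4 fpm in WT (log2 change 1.70 ± 0.11, adjusted p = 2.61e-05). The stem cell list thus held both directions, and the call for Olfm4 was lost with all 12 libraries in the fit (adjusted p = 0.0565). Sox9, a factor of crypt cells, rose by 0.81 (adjusted p = 0.0031), and by 0.72 without a call with Xist state as a term.

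Of 54 genes of the spindle, mitosis and cytokinesis 6 were called higher and 4 lower, and of 44 S-phase genes 2 and 0, against the 19.8% and 21.6% of all genes. Their medians were 0.10 and 0.04. Mki67, the proliferation marker, was at 119, 150.1 and 136 fpm in DKO, against 117, 147 and 114 fpm in WT (log2 change 0.10, adjusted p = 0.567). Numa1, which anchors dynein at the spindle poles and the cortex, was at 109, 101.2 and 90.6 fpm in DKO, against 139, 139.7 and 140.3 fpm in WT (log2 change -0.48 ± 0.10, adjusted p = 0.00753). Its partner Gpsm2 changed by -0.45 (adjusted p = 0.00773), and Anln, an actin-binding protein of the cleavage furrow, by 0.92 (adjusted p = 0.00449). With Xist state as a term these 3 changes were -0.47, -0.43 and 0.87, and none of the 3 calls was kept. The number of spindle genes lower was 2 without DKO replicate 2 or without WT replicate 1. Without DKO replicate 1, 14 spindle genes and 7 S-phase genes were higher, and with quality weights 21 and 13. Rrm2, a subunit of ribonucleotide reductase, was at 61.9, 88.1 and 99.8 fpm in DKO, against 32.8, 40.0 and 23.8 fpm in WT (log2 change 1.35 ± 0.23, adjusted p = 0.00277), and was not called with all 12 libraries in the fit (adjusted p = 0.0648).

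The p53 targets report on DNA damage and mitotic error. Of 27 tested, 11 were higher and 5 lower, and 6 and 3 with Xist state as a term. The number lower was 3 without DKO replicate 2, WT replicate 1 or WT replicate 3. Gdf15, a stress-induced cytokine, was at 4.22, 6.21 and 7.55 fpm in DKO, against 0.285, 0.329 and 0.311 fpm in WT (log2 change 2.39 ± 0.21, adjusted p = 0.000118), and the kinase gene Plk2 at 27.4, 28.3 and 22.1 fpm in DKO, against 4.08, 5.05 and 5.29 fpm in WT (log2 change 2.21 ± 0.16, adjusted p = 4.21e-05). The cell-cycle inhibitor Cdkn1a, or p21, was at 530.4, 425 and 450.2 fpm in DKO, against 310.2, 323 and 310.4 fpm in WT (log2 change 0.57 ± 0.12, adjusted p = 0.00617), a smaller rise. With Xist state as a term the change of Cdkn1a was 0.59 and was not called. Tnfrsf10b, a death receptor, rose by 1.36 and Plk3 by 2.24 (adjusted p = 0.000365 and 0.000221). Other targets went the opposite way, since Sesn1 was at 32.0, 24.6 and 27.6 fpm in DKO, against 126, 108 and 137 fpm in WT (log2 change -2.10 ± 0.14, adjusted p = 2.68e-05) and Fas changed by -1.66 (adjusted p = 0.000145).

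Antigen presentation genes lay lower in DKO. MHC class II presents peptides to T cells and is made by epithelium and by antigen-presenting cells under the activator CIITA. Of 10 class II genes tested, 8 were called lower and 0 higher, and the median was -3.44. Ciita was at 4.61, 2.73 and 2.97 fpm in DKO, against 86.0, 105 and 85.0 fpm in WT (log2 change -4.41 ± 0.18, adjusted p = 4.44e-06), Cd74, the invariant chain, at 524, 319.5 and 352 fpm in DKO, against 4160.0, 4218 and 3576 fpm in WT (log2 change -3.35 ± 0.20, adjusted p = 2.02e-05), and H2-Aa, a class II alpha chain, at 138, 87.3 and 113 fpm in DKO, against 1631, 1543 and 1536 fpm in WT (log2 change -3.81 ± 0.17, adjusted p = 5.07e-06). Every DKO library was below every WT library. Of 24 class I genes 18 were lower and 0 higher, including B2m, the light chain, at 623, 396 and 484 fpm in DKO, against 2958, 2398 and 2498 fpm in WT (log2 change -2.40 ± 0.19, adjusted p = 6.33e-05), and H2-K1, a classical heavy chain, at 876, 577 and 594 fpm in DKO, against 2470.0, 2161 and 1936 fpm in WT (log2 change -1.70 ± 0.19, adjusted p = 0.000408). The class I heavy chain genes are similar in sequence, so their separate values are uncertain.

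Of 53 interferon-induced genes 28 were lower and 6 higher (median -0.88). Apol10a, a gene induced by interferon in mice, was at 2.33, 0.757 and 2.38 fpm in DKO, against 512, 449 and 657 fpm in WT (log2 change -7.62 ± 0.27, adjusted p = 2.24e-06). Tap1, the peptide pump of class I loading, changed by -2.49 and the regulator Irf1 by -1.59 (adjusted p = 6.96e-05 and 9.55e-05). With all 12 libraries in the fit 16 interferon genes and 11 class I genes were lower. The chemokine Ccl25, which draws lymphocytes to the small intestine, was at 96.1, 105 and 126 fpm in DKO, against 478, 399.7 and 483 fpm in WT (log2 change -2.05 ± 0.13, adjusted p = 2.77e-05).

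T cell and intraepithelial lymphocyte genes lay lower: of 31 tested, 28 were called lower and 0 higher (median -2.21). Cd3e was at 2.28, 1.40 and 3.48 fpm in DKO, against 17.4, 25.3 and 24.5 fpm in WT (log2 change -2.82 ± 0.26, adjusted p = 0.000132), Itgae, the integrin that binds E-cadherin, at 5.24, 3.41 and 6.22 fpm in DKO, against 38.6, 33.4 and 44.7 fpm in WT (log2 change -2.76 ± 0.21, adjusted p = 5.3e-05), and Gzma, a protease of killer cells, at 5.96, 5.98 and 23.8 fpm in DKO, against 116, 106 and 141 fpm in WT (log2 change -3.51 ± 0.46, adjusted p = 0.000777). The call of Gzma was lost with all 12 libraries in the fit (adjusted p = 0.0652). The 3 T cell markers in the table summed to 5.79 to 15.5 fpm in DKO and 68.6 to 79.8 fpm in WT, and none was at 0. Their part in the fall of MHC and interferon-induced genes was not tested. Of 14 B and plasma cell genes 5 were lower and 2 higher. The number lower was 0 with all 12 libraries in the fit, 2 with Xist state as a term, 10 with edgeR and 8 without WT replicate 2, where the median was -0.59 against -1.57. The markers Cd79a, Ms4a1, Igj and Mzb1 summed to 636 to 1085 fpm in DKO and 1595 to 1927 fpm in WT, most of it Igj, whose call was lost with all 12 libraries in the fit (adjusted p = 0.482). With Xist state as a term Igj changed by -1.18 and was not called. Cd79a was at 5.67, 2.99 and 4.30 fpm in DKO, against 14.7, 141 and 12.5 fpm in WT (log2 change -2.58 ± 0.81, adjusted p = 0.0364), with WT replicate 2 far above the rest, and its call was lost without each of the DKO libraries. The 2 genes called higher in this list were Ly6d, at 393, 422 and 697 fpm in DKO, against 2.45, 34.9 and 1.97 fpm in WT (log2 change 6.09 ± 0.86, adjusted p = 0.00116), and Blnk, which rose by 2.38 (adjusted p = 0.00117). Ly6d is also an epithelial surface antigen.

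Macrophage and dendritic cell genes went both ways, 14 of 29 higher and 4 lower, and 5 higher with Xist state as a term. Mrc1, the mannose receptor of tissue-resident macrophages, was at 108, 92.6 and 109 fpm in DKO, against 6.93, 9.84 and 9.03 fpm in WT (log2 change 3.45 ± 0.15, adjusted p = 4.68e-06), and the scavenger receptor Cd163 at 4.66, 8.03 and 6.40 fpm in DKO, against 1.43, 0.293 and 0.346 fpm in WT (log2 change 2.16 ± 0.29, adjusted p = 0.000934). Csf1r, which all macrophages carry, was at 42.0, 31.8 and 27.3 fpm in DKO, against 31.2, 33.6 and 25.4 fpm in WT, with overlapping groups (adjusted p = 0.534). The neutrophil markers S100a8, S100a9, Csf3r and Cxcr2 summed to 3.01 to 10.5 fpm in DKO and 0.489 to 1.17 fpm in WT. Only 6 of 31 listed genes of neutrophils, eosinophils and mast cells passed the filter, 4 of them called higher and 1 lower, and 2 higher without DKO replicate 2, WT replicate 1 or WT replicate 3.

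**Figure D4:**
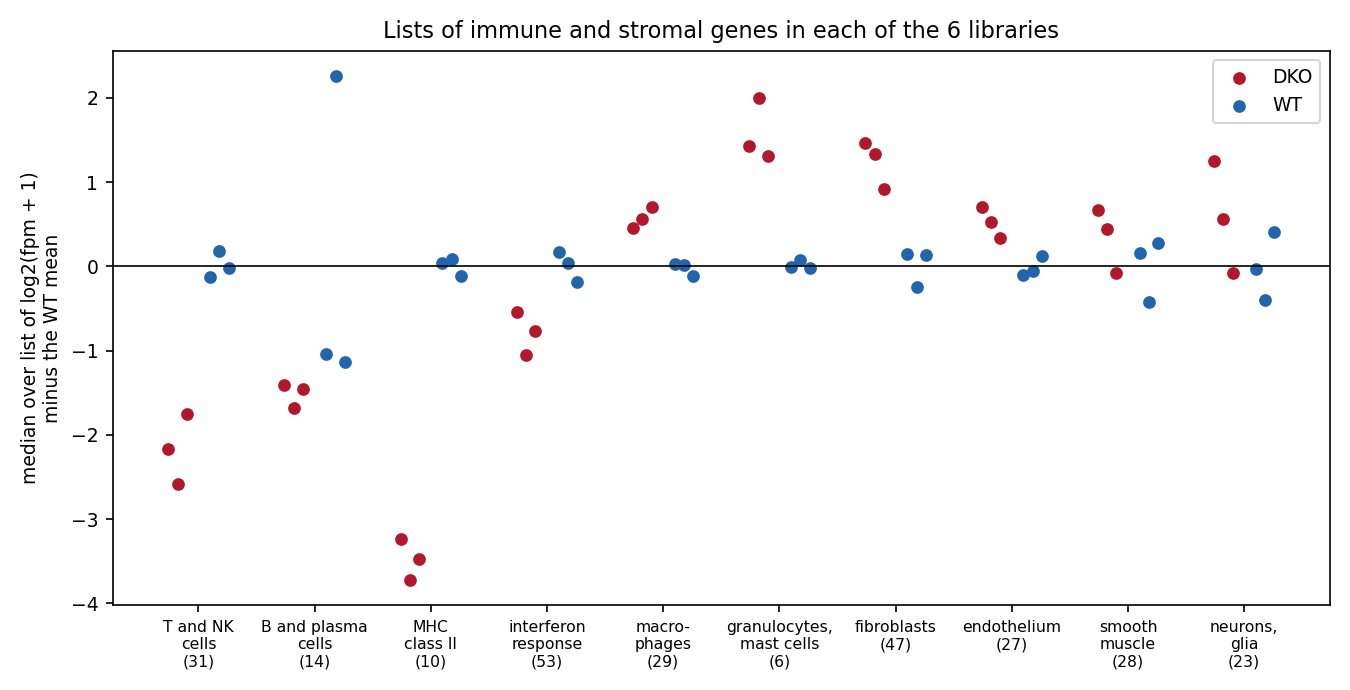
Median over each list of log2(fpm + 1) minus the WT mean of each gene, in each of the 6 libraries (DKO red, left of WT blue), with the number of tested genes in parentheses. The DKO libraries lie below the WT libraries for T cells and MHC class II, above them for macrophages, granulocytes and fibroblasts, and WT replicate 2 stands out for B and plasma cells.

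Of 30 cytokine and chemokine genes tested 13 were higher and 5 lower. Ptgs2, the inducible cyclooxygenase, was at 17.8, 18.02 and 22.3 fpm in DKO, against 2.24, 1.46 and 2.04 fpm in WT (log2 change 2.81 ± 0.17, adjusted p = 2.24e-05), Cxcl16 at 183, 164 and 193 fpm in DKO, against 17.0, 20.1 and 14.5 fpm in WT (log2 change 3.32 ± 0.14, adjusted p = 4.44e-06), and Il1rl1, the receptor for IL-33, at 69.5, 49.1 and 48.4 fpm in DKO, against 5.67, 1.06 and 1.28 fpm in WT (log2 change 4.15 ± 0.42, adjusted p = 0.000238). All 3 were higher in each DKO library. Antimicrobial and oxidant defence genes split, 7 of 27 higher and 10 lower, and 7 and 5 with Xist state as a term. Pigr, which carries IgA across the epithelium, was at 554, 436 and 472 fpm in DKO, against 6348, 4562 and 6672 fpm in WT (log2 change -3.57 ± 0.19, adjusted p = 1.21e-05). The lectin Reg4 was at 209, 253 and 313 fpm in DKO, against 56.9, 35.0 and 50.3 fpm in WT (log2 change 2.43 ± 0.21, adjusted p = 9.73e-05), whereas Reg3b was at 1602, 2538 and 7078 fpm in DKO, against 5956, 4943 and 9232 fpm in WT, with a wide spread in DKO and no call (log2 change -1.08, adjusted p = 0.133). DKO replicate 3 was the high one, and without it Reg3b was called (adjusted p = 0.0107). Cell death genes held 18 lower and 8 higher of 44, 2 higher with Xist state as a term and 5 without WT replicate 1. Gsdmc2, a gasdermin, was at 2.86, 0.492 and 1.10 fpm in DKO, against 68.8, 46.3 and 79.5 fpm in WT (log2 change -4.81 ± 0.35, adjusted p = 4.68e-05), Casp1 changed by -1.57 (adjusted p = 0.000211), and Ripk3, the kinase of necroptosis, was at 166, 176 and 159 fpm in DKO, against 38.4, 44.1 and 41.1 fpm in WT (log2 change 1.99 ± 0.10, adjusted p = 8.88e-06).

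Of 47 fibroblast and niche genes 31 were higher and 2 lower (median 1.17), and 20 were higher with Xist state as a term. The collagen gene Col3a1 was at 407, 317 and 229.8 fpm in DKO, against 118, 66.9 and 108 fpm in WT (log2 change 1.69 ± 0.26, adjusted p = 0.00181), and the proteoglycan gene Dcn at 282, 240.4 and 247 fpm in DKO, against 85.7, 69.8 and 78.7 fpm in WT (log2 change 1.71 ± 0.12, adjusted p = 3.35e-05). No DKO value of either reached down to a WT value. Sox6 was at 16.0, 11.9 and 10.98 fpm in DKO, against 43.2, 40.9 and 49.3 fpm in WT (log2 change -1.72 ± 0.16, adjusted p = 0.000152). Of 27 endothelial genes 12 were higher and 0 lower, 44.4% called against 41.4% of all tested genes. Pecam1 was at 18.4 ± 3.87 fpm in DKO and 16.2 ± 7.32 fpm in WT and was not called (adjusted p = 0.541). Among 28 smooth muscle and Cajal cell genes 6 were higher and 2 lower, against 19.8% higher and 21.6% lower over all tested genes. The counts were 1 and 0 with Xist state as a term, with 11 higher without DKO replicate 3 and 4 lower without WT replicate 2. Myh11 was at 587, 500.3 and 312 fpm in DKO, against 407, 229.7 and 518 fpm in WT (adjusted p = 0.482). Of 23 glial and neuronal genes 4 were higher and 1 lower, against the same shares over all genes. The number higher was 9 without DKO replicate 3 and 2 with Xist state as a term. Gfap, a filament of reactive glia, was at 11.9, 9.09 and 11.4 fpm in DKO, against 0.285, 0.585 and 1.28 fpm in WT (log2 change 2.82 ± 0.24, adjusted p = 9.27e-05).

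Junction genes were 14 higher and 4 lower of 50. That is 36% called in either direction, fewer than the 41.4% of all tested genes. Their median change was 0.01, and -0.003 with Xist state as a term. Cldn4, a barrier-forming claudin, was at 1376, 901 and 1149 fpm in DKO, against 161, 178 and 133 fpm in WT (log2 change 2.84 ± 0.18, adjusted p = 2.52e-05), and Cldn15, a channel-forming claudin of the small intestine, at 76.0, 87.1 and 73.5 fpm in DKO, against 238, 256 and 247 fpm in WT (log2 change -1.64 ± 0.10, adjusted p = 2.28e-05). These claudins moved in opposite directions without overlap. Pard6b, a polarity protein, rose by 1.81 and its kinase partner Prkcz fell by 0.95 (adjusted p = 3.96e-05 and 0.000803). Endocytic and lysosomal genes were 11 higher and 15 lower of 42, 4 higher with Xist state as a term, 7 higher without WT replicate 3 and 9 lower without WT replicate 1. Cubn, the apical receptor for vitamin B12 with intrinsic factor, was at 55.0, 68.9 and 46.5 fpm in DKO, against 678, 516 and 545 fpm in WT (log2 change -3.34 ± 0.17, adjusted p = 9.33e-06), and its partner Amn changed by -2.05 (adjusted p = 5.25e-05).

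Of the stress genes, more rose than fell. Of 27 heat shock and oxidative stress genes 12 were higher and 3 lower, 6 higher with Xist state as a term, among them heme oxygenase Hmox1 at 12.8, 18.1 and 15.3 fpm in DKO, against 1.59, 2.49 and 0.969 fpm in WT (log2 change 2.64 ± 0.24, adjusted p = 0.00013) and the small heat shock protein gene Hspb1 at 35.5, 51.0 and 27.9 fpm in DKO, against 9.78, 5.45 and 7.06 fpm in WT (log2 change 2.20 ± 0.26, adjusted p = 0.000477). Of 31 genes of the unfolded protein response 8 were higher and 7 lower, close to the shares of all genes (19.8% and 21.6%), with lower counts of 4 without DKO replicate 2, 2 and 4 without WT replicates 1 and 3 and 2 with Xist state as a term. Among them Chac1, a glutathione-degrading enzyme induced by ATF4, was at 19.4, 17.5 and 15.6 fpm in DKO, against 2.28, 2.23 and 4.33 fpm in WT (log2 change 2.27 ± 0.22, adjusted p = 0.000195), Asns, asparagine synthetase, rose by 1.70 (adjusted p = 0.000244), and the chaperone Hspa5 changed by -0.02 (adjusted p = 0.938). Clock genes were lower in 10 of 19 and higher in 1. Dbp was at 1.31, 1.10 and 1.33 fpm in DKO, against 13.7, 13.8 and 14.6 fpm in WT (log2 change -2.75 ± 0.14, adjusted p = 1.14e-05), and Per2 changed by -1.51 (adjusted p = 0.00572). The hours at which tissue was taken are not given in the labels. Of 26 genes of stomach, duodenal glands and colon only 9 passed the filter, 6 higher and 2 lower. Of 12 genes of fat, pancreas and blood 2 were higher and 0 lower, 16.7% called against 41.4% of all tested genes.

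The single losses were set beside DKO in a fit of all 12 libraries, in which DKO and AKO differed in 4412 genes (33% of those tested) and DKO and BKO in 3164 (23.7%). BKO replicate 3 stood apart from the other BKO libraries and towards DKO, which widens the spread of that group. For S100a6 (2293 fpm), Krt18 (1287 fpm) and Ly6d (433 fpm) it lay within the range of the DKO libraries, and for Cd74 (63.0 fpm) below it. For Areg (57.7 fpm) and Anxa1 (149.5 fpm) it lay between the DKO libraries and the other BKO libraries. Il1rn, for example, was at 808, 661 and 694 fpm in DKO, 4.22, 3.46 and 6.27 fpm in AKO, 7.14, 8.67 and 183 fpm in BKO and 3.02, 9.51 and 2.98 fpm in WT, with BKO replicate 3 the high one. Its level in DKO still exceeded that in AKO by 7.02 ± 0.95 (adjusted p = 0.000851) and that in BKO by 4.88 ± 0.95 (adjusted p = 0.00576).

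The same held for genes of other roles. Areg was higher in DKO by 5.17 ± 0.51 (adjusted p = 0.000183) than in AKO and by 3.95 ± 0.51 (adjusted p = 0.000946) than in BKO, and Anxa1 by 5.19 ± 0.67 (adjusted p = 0.000697) and 3.78 ± 0.67 (adjusted p = 0.00415). Pdzk1 differed by -5.34 ± 0.84 (adjusted p = 0.00154) from AKO and by -4.65 ± 0.84 (adjusted p = 0.00434) from BKO. Ppara differed by -3.34 ± 0.39 (adjusted p = 0.000392) and -2.96 ± 0.39 (adjusted p = 0.00106), and Slc1a1 by -4.66 ± 0.61 (adjusted p = 0.000704) and -3.94 ± 0.61 (adjusted p = 0.00222), in the same order. These genes thus differed between DKO and each single loss. Others did not pass against BKO. Ciita was at 4.61, 2.73 and 2.97 fpm in DKO, 86.5, 56.5 and 90.2 fpm in AKO, 57.0, 74.4 and 0.367 fpm in BKO and 86.0, 105 and 85.0 fpm in WT, and the difference from BKO was -2.06 ± 1.15 (adjusted p = 0.217). For Cd3e it was -0.98 ± 0.87 (adjusted p = 0.431), for Olfm4 0.12 ± 0.51 (adjusted p = 0.882) and for Muc2 -0.04 ± 0.26 (adjusted p = 0.92). These cases were unlike. Cd3e was at 15.9, 15.2 and 0 fpm in BKO, with replicate 3 the low one. Muc2 was at 1865, 2078 and 1945 fpm in BKO, against 939.9, 1004 and 966 fpm in WT, so its rise was also seen in each BKO library.

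**Figure D5:**
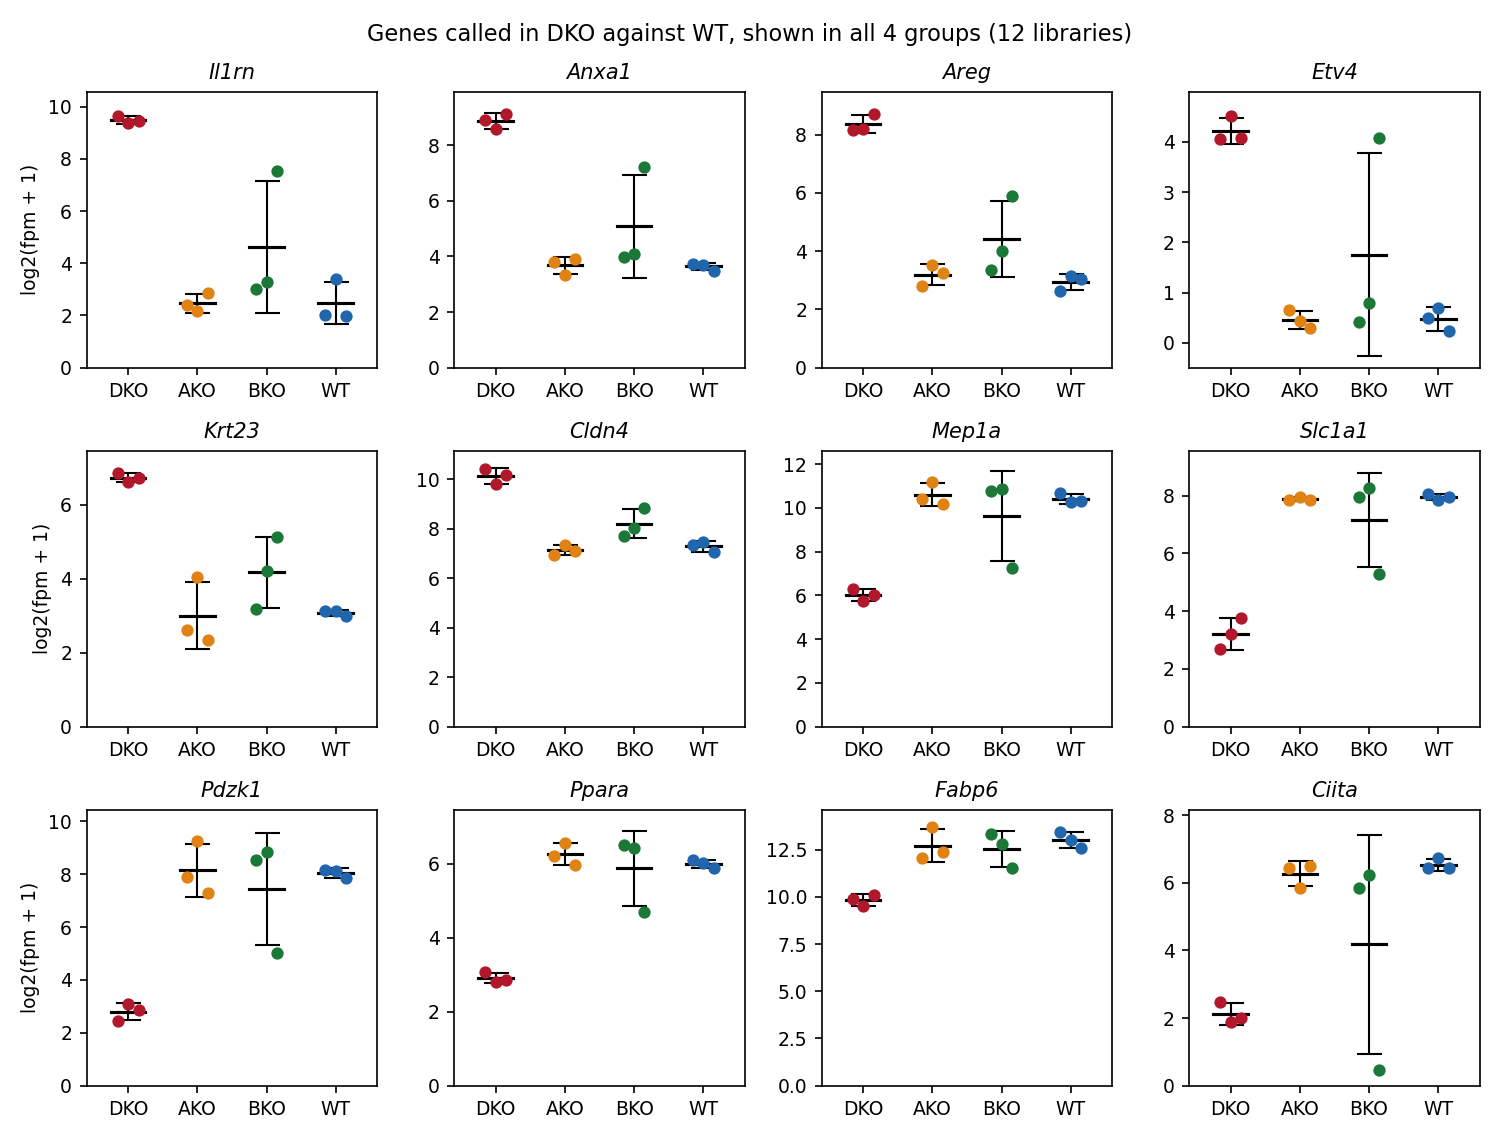
Levels of 12 genes as log2(fpm + 1) in the 12 libraries, by group from DKO to WT. Points are libraries, lines the mean and bars the SD of 3 libraries. The DKO libraries lie above WT for the first 6 genes and below it for the other 6, and BKO replicate 3 lies towards DKO in most of the 12.

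Some of the largest falls followed an all-or-none pattern across libraries, which did not keep to genotype in Kctd12, Ces2d-ps and Cyp3a25. Kctd12, an auxiliary subunit of GABA-B receptors, had no read in the DKO libraries and was at 86.5, 109 and 91.0 fpm in WT, at least 723-fold lower with DKO at the 3-read floor, and in AKO it was at 112, 0 and 104 fpm. The pseudogene Ces2d-ps had no read in DKO and was at 127, 133 and 0 fpm in AKO, 122, 0.225 and 0 fpm in BKO and 123, 128 and 143 fpm in WT. H2-Bl, a class I gene, was at 0.776, 0.606 and 1.01 fpm in DKO, 84.1, 143 and 77.9 fpm in AKO, 5.94, 8.05 and 0.881 fpm in BKO and 128, 124 and 107 fpm in WT. H2-Bl kept to the Rab11b genotype, low in all DKO and BKO libraries, which lack Rab11b, and high in all AKO and WT libraries. Cyp3a25 was at 172, 189 and 67.2 fpm in AKO and 78.5, 97.8 and 0.404 fpm in BKO. For these genes the loss of Rab11 genes and other differences between the mice cannot be told apart.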

How the data were processed

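The submitters' processing notes name FastQC 0.11.3, Trimmomatic 0.36, DESeq2 and the build mm9. The sources used here do not give the aligner's settings, the counting tool, the annotation or any filter. The deposited values have the unit signal, fragment counts that the authors divided by 1 factor per library (fpm), since 100% of the values in each library were whole multiples of 1 step within 0.001 reads. Library depth ran from 20100297 to 28874625 recovered reads in DKO and WT.

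Genes at 1 fpm or more in at least 3 of the 6 DKO and WT libraries were tested with limma 3.58.1 in R 4.3.3 (trended prior) on log2(fpm + 1), with 1 coefficient per group and Benjamini-Hochberg adjustment. Differences of DKO from AKO and BKO came from a fit of all 12 libraries. The fit was tested on simulated data. Alternatives were edgeR 4.0.16 and DESeq2 1.42.0 on recovered reads, other pseudocounts, filters, scalings and weights, a replicate block, Xist state (over or under 10 fpm) as a term, and leaving out each library.

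Members and lists were chosen with earlier results of these data known. The 50 lists are described by counts and medians, with no set test. Genes were named by a rule: Rab11a, Rab11b and Rab25, then the 15 largest called changes each way whose groups did not overlap and whose higher mean reached 10 fpm, the 10 largest called differences in level each way, and from each list up to 6 called members by p and 4 by level. Sex-linked, cell type and regional markers were added as checks. Promoter windows were matched to RefSeq (GRCm38.p6) by symbol.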

Additional observations from a re-analysis of the deposited data

How the results depend on the processing

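The number of genes called, 5533, ranged from 3958 to 5669 when 1 library was left out, and the number at least 2-fold from 1943 to 2112 against 2067. Of the other settings, only Xist state as a term (2411 calls) and quality weights (8795 calls) moved the number of calls by over 1.5 times, and a pseudocount of 5 left 1329 genes at 2-fold or more. On recovered reads edgeR called 5608 genes and DESeq2 6013. The share of calls that were higher, 47.9% (95% Wilson interval 46.6 to 49.2%), was 45.8% with a filter of 5, 50.5% with quantile scaling, 55.9% with scaling by total reads, 46.1% with all 12 libraries, 43.5% with Xist state as a term, 50.5% with edgeR, 49.7% with DESeq2, and 46.8 to 48.4% when 1 library was left out. Scaling by total reads moved the median change of all genes to 0.07. The causes of these shifts were not tested.

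The replicate numbers did not pair the libraries, since the deviations of same-numbered DKO and WT libraries correlated at 0.022, 0.075 and -0.162. The library closest to WT replicate 3 in these deviations was DKO replicate 1. A fit with a replicate block called 4959 genes, 47.4% of them higher and 2058 at least 2-fold, and of the genes named here Lyz1 (adjusted p = 0.0149), Reg3b (0.0414) and Dclk1 (0.0364) gained a call while none lost one.

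Of 165 called genes named in the text, Xist state as a term ended the call of 17 and all 12 libraries in the fit that of 10, and none changed its direction in any setting run. Genes without a call did change sign. Clu was at 0.025 with quality weights, 0.74 with Xist state as a term and -1.08 to 0.78 when 1 library was left out. Ezr was at -0.071 and Gata4 at 0.11 with Xist state as a term, and Krt20 at -0.13 with quality weights. Hspa5 was at 0.16 with quantile scaling, 0.066 with scaling by total reads and 0.015 with edgeR. When 1 library was left out, changes ranged over -0.080 to 0.24 for Ezr, -0.17 to 0.17 for Hspa5, -0.065 to 0.28 for Krt20, -0.018 to 0.28 for Csf1r, -0.34 to 0.063 for Lgr5, -0.026 to 0.57 for Myh11, -0.30 to 0.0026 for Myo5b and -0.00085 to 0.56 for Pecam1.

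Groups of 3 libraries limit the error of each gene, the DKO libraries share an Xist state with 1 WT library only, WT genotype is given without Cre or floxed alleles, and bulk tissue does not separate cell number from level. Genes of gene families with near-identical copies are uncertain because the counting is not described. The library kit named in the labels does not mark strand, so a gene and an overlapping antisense partner cannot be told apart.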
